A study of Mus musculus with 12 samples.

Results

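The cell cycle and DNA replication genes described here are 34 genes that a dividing cell uses to enter the cycle, copy its DNA and separate its chromosomes. They were chosen by gene name from a list of 35 names, among which Cdc2a is the older symbol of Cdk1, and all 34 genes were found on the array. Each was read from the probe with the highest mean signal. All 34 were among the 18394 genes that were well above background on at least 4 of 12 arrays and were therefore tested. Kif11 was well above background on 5 arrays, Bub1 on 11, Cenpa on the 11 arrays that gave it a value, and the others on all 12.

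A cell leaves G1 when D-type and E-type cyclins switch on their kinases and the E2F factors are released. Helicase subunits of the MCM family are then loaded at origins, DNA is copied during S phase, and a later wave of genes, controlled through the DREAM and FOXM1 complexes, supplies the kinases, motors and checkpoint proteins of mitosis. In the adult bladder the urothelium renews slowly at rest. D-type cyclins and CDK inhibitors are also made by cells that do not divide.

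Total RNA of urinary bladder came from wild-type female C57BL/6 mice aged 10 weeks. The mice had lived for 2 weeks in 12 h of light and 12 h of darkness and were then held in constant darkness for a time that the labels do not give. All groups share this treatment and differ in the circadian time (CT) of death, which was CT0, CT4, CT8, CT12, CT16 or CT20, with 2 arrays each. CT0 to CT12 is the subjective day, when mice rest. CT16 is not among the times listed in the description of the design, although 2 arrays carry that label. The labels do not say that each array held RNA of a separate mouse, so p-values measure the spread between arrays. The question put to these genes was whether their transcripts change over the circadian day in this tissue.

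Levels are given as log2 of the processed signal minus the array's 75th percentile, so 0 is that percentile, which lay between 844 and 984 intensity units. They can be compared for 1 gene across arrays and not between genes, because probes differ in brightness. The share of spots well above background ran from 64.2% to 70.2% over the arrays. CT0 and CT4 shared a slide, as did CT8 and CT12, and CT16 and CT20, so a step between the 2 times of a slide is free of slide differences. A difference between slides cannot be told apart from a difference between times. All 10 urothelial markers, such as the uroplakin gene Upk2 (mean level 6.14), and all 7 smooth muscle markers, such as Myh11 (mean level 7.26), were well above background on all 12 arrays, as the tissue label requires.

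One array stood apart for these genes. CT0 replicate 2 gave the highest level of 30 of the 34 genes, against 12.3% of all genes tested. It had 228 spots marked as outliers, against 55 to 83 on the other arrays. Its mean deviation over 5 adipocyte markers was -2.70, the lowest of the arrays, and over 7 smooth muscle markers 0.42, the highest. Over 7 hepatocyte markers it was 1.29, the rank after CT20 replicate 2 and CT12 replicate 2, and over 10 urothelial markers -0.16, with 1 array lower. Of 14 leukocyte markers 13 were measured, and their mean deviation on this array was 0.18, in a range of -0.36 to 0.29. The part of these differences in the results was not tested, and the steps from CT0 to CT4 on the probe used, with the counts of genes lower at CT4, are given with and without this array. Without it CT0 is 1 array, replicate 1, whose spread is taken from the other times.

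**Figure D1:**
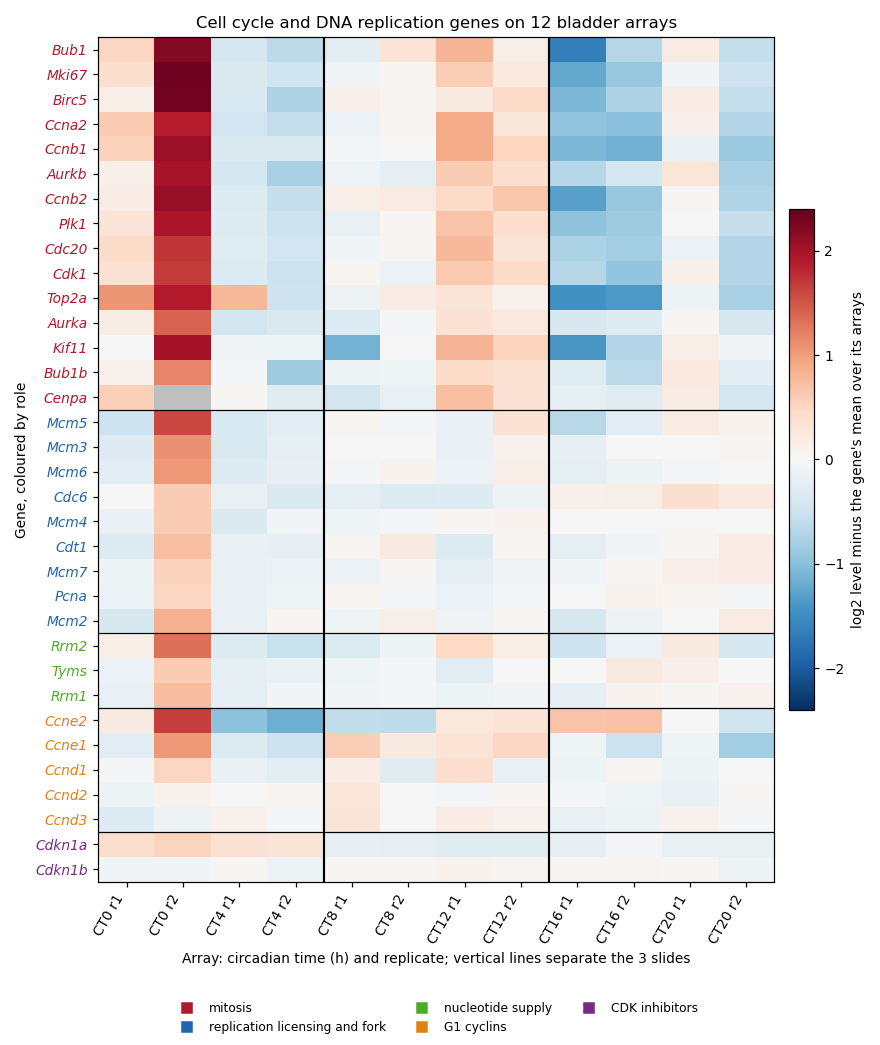
Heat map of the 34 genes (rows, grouped and coloured by role) on 12 arrays (columns, by circadian time and replicate; r1 and r2 are replicates). Colour gives the log2 level minus the gene's mean over its arrays, grey marks the missing Cenpa value, and the column of CT0 replicate 2 is the highest for 30 genes.

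No gene of the 34 passed the adjusted threshold of 0.05 in limma in any test. For a 24 h wave 0 of 34 passed, and 2 were under 0.05 before adjustment, against 0.636% and 15.6% of all genes. Over all 6 times, for any difference, the counts were 0 and 12, against 0.0979% and 19.1%. For any step within a slide they were 0 and 12, against 0.0109% and 15.4%. What follows describes levels and steps that missed the threshold over all genes. In whole tissue, fewer dividing cells and less of a transcript per cell cannot be told apart.

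The steps had a common direction in the first slide. From CT0 to CT4, 31 of 34 genes were lower, against 51.6% of all genes, 3 were higher (48.4%), and the median step was -0.82 (log2), against -0.01 over all genes. Of the 34, 17 were lower with an unadjusted p under 0.05 (5.16% of all genes) and 0 were higher (4.03%); the smallest limma adjusted p was 0.476, and 0 passed (0.00544% of all genes). In 23 genes the arrays of CT4 lay below those of CT0 (20.5% of all genes), and in 1 gene above (18.1%). Of the 23, Cenpa had a value on only 1 array of CT0. Without CT0 replicate 2, 25 of 34 were lower, the median step was -0.22 and 9 were lower with an unadjusted p under 0.05 (2.55% of all genes). Without CT4 replicate 2 the median step was -0.71, and without CT0 replicate 1 the median step was -1.61 over the 33 genes with a value. That last fit compares CT4 with the array that stood apart and assumes that a lone array varies like the others.

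In the other slides the genes leaned the opposite way. From CT8 to CT12, 23 of 34 were higher (48.2% of all genes), with a median step of 0.16; 1 was higher with an unadjusted p under 0.05 (5.95%) and 0 were lower (7.08%). In 17 genes both arrays of CT12 lay above both of CT8 (19.7% of all genes) and in 4 below (24.5%). Between CT16 and CT20, 26 were higher (48.7%) and 8 lower (51.3%), 18 higher without overlap (25.4%) and 2 lower without overlap (27.2%). The median step was 0.22, 0 were higher with an unadjusted p under 0.05 (7.3%) and 1 was lower (6.99%). In limma 0 of 34 passed in either step (0.0% and 0.00544% of all genes). The median over all genes was -0.01 in both. The fit gives each gene 1 spread over all 6 times, so the distance between the 2 arrays of CT0 enters the SE and p of these steps too. These steps use no array of CT0, so leaving out CT0 replicate 2 cannot change their medians, 0.16 and 0.22.

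**Figure D2:**
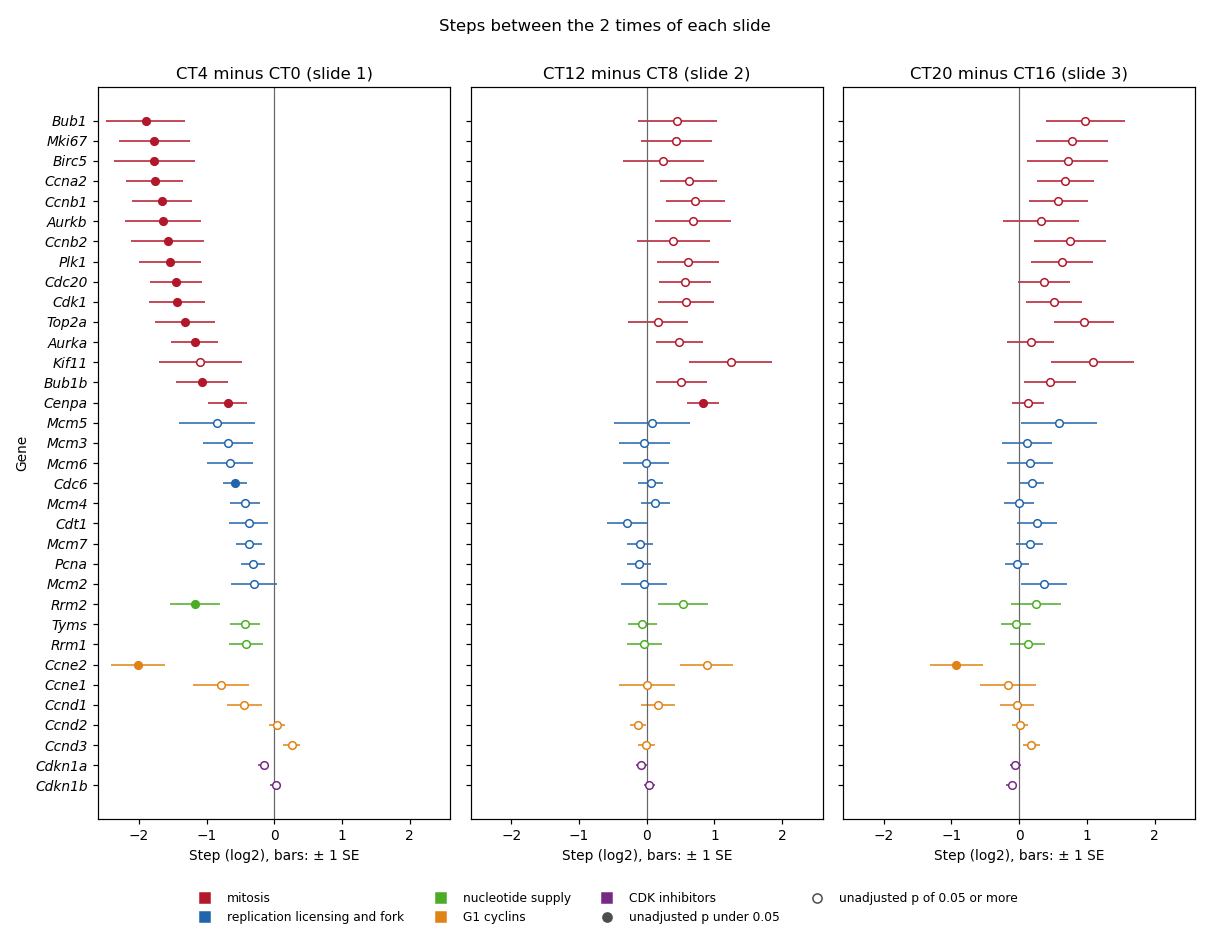
Step of each of the 34 genes between the 2 times of a slide (log2, horizontal axis, with bars of 1 SE from the limma fit), one panel per slide. All 15 mitosis genes (red, top) lie left of 0 from CT0 to CT4 and right of 0 in the other panels; filled points have an unadjusted p under 0.05.

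The 15 mitosis genes carried most of this pattern. From CT0 to CT4 all 15 were lower, with steps of -1.90 to -0.69 and a median of -1.54, and 14 had an unadjusted p under 0.05 (smallest adjusted p = 0.480). In all 15 the arrays of CT4 lay below those of CT0, where Cenpa had a value on only 1 array. At CT12 all 15 were higher than at CT8, with a median of 0.57, and 13 did not overlap (19.7% of all genes are higher without overlap); 1 had an unadjusted p under 0.05. At CT20 all 15 were higher than at CT16, with a median of 0.63, 11 did not overlap (25.4%) and 0 had an unadjusted p under 0.05. Without CT0 replicate 2, which leaves 1 array at CT0, all 15 were lower at CT4 than at CT0, by -1.13 to -0.10 with a median of -0.72. The -0.10 is that of Kif11, which was not well above background on CT0 replicate 1 or at CT4, so its direction there is not measured.

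These genes encode proteins that work together in 1 phase and are not independent replicates of a time. With CT0 replicate 2 set aside, the highest array was CT12 replicate 1 for 12 of the 15, CT12 replicate 2 for 2 and CT0 replicate 1 for Top2a. The lowest array was one of CT16 for 11 of the 15. These ranks compare arrays of different slides, so slide and time cannot be told apart in them. The shares of all genes with the same highest or lowest arrays were not taken.

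Ccnb1 and Ccnb2 encode the B-type cyclins that drive entry into mitosis. The log2 level of Ccnb1 (probe at chr13:97885282-97885341, mm7) was -3.41 and -1.91 at CT0, -4.32 and -4.32 at CT4, -4.01 and -3.95 at CT8, -3.08 and -3.45 at CT12, -5.04 and -5.11 at CT16, and -4.14 and -4.86 at CT20. Both arrays of CT0 and of CT12 were high, both of CT16 were low, and the 2 times did not overlap in any of the 3 steps. The step from CT0 to CT4 was -1.66 ± 0.44 (SE; 3.16-fold lower, limma adjusted p = 0.480), and without CT0 replicate 2 it was -0.91 ± 0.28. The later steps were 0.72 ± 0.44 and 0.58 ± 0.44. Less bright Ccnb1 probes, well above background on 11 arrays each, stepped by -2.07 ± 0.48, 0.84 ± 0.48 and 0.92 ± 0.48 and by -1.87 ± 0.54, 0.67 ± 0.54 and 0.44 ± 0.54, in the same directions. Ccnb2 lay at -0.93 and 0.98 at CT0, -1.44 and -1.67 at CT4, -0.97 and -0.91 at CT8, -0.65 and -0.45 at CT12, -2.41 and -2.02 at CT16, and -1.09 and -1.83 at CT20. Its CT0 replicate 1 lay between the arrays of CT8 and below those of CT12, so its high mean at CT0 rests on replicate 2. The step to CT4 was -1.58 ± 0.54 with both arrays and -0.63 ± 0.31 without that one.

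Cdk1 encodes the kinase that the B-type cyclins activate, and Ccna2 encodes cyclin A, its partner in late S phase and G2. Cdk1 (Cdc2a in the files, probe between positions 68946079 and 68948488 of chromosome 10, mm7) was measured at -2.21 and -0.89 at CT0, -2.89 and -3.09 at CT4, -2.52 and -2.70 at CT8, -1.94 and -2.11 at CT12, -3.25 and -3.51 at CT16, and -2.44 and -3.27 at CT20. The times of the first and second slide did not overlap, while those of the last slide did. Its steps were -1.44 ± 0.41, 0.58 ± 0.41 and 0.52 ± 0.41, and the first was -0.78 ± 0.32 without CT0 replicate 2. Ccna2 was measured at -0.96 and 0.32 at CT0, -2.03 and -2.14 at CT4, -1.70 and -1.51 at CT8, -0.68 and -1.30 at CT12, -2.52 and -2.56 at CT16, and -1.45 and -2.26 at CT20. All 3 of its steps were free of overlap, at -1.77 ± 0.43, 0.62 ± 0.43 and 0.69 ± 0.43, and the first was -1.13 ± 0.36 without CT0 replicate 2.

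The kinases Plk1, Aurka and Aurkb organise the spindle and the separation of sister chromatids. Plk1 levels were -0.95 and 0.70 at CT0, -1.56 and -1.77 at CT4, -1.43 and -1.21 at CT8, -0.56 and -0.85 at CT12, -2.22 and -2.10 at CT16, and -1.26 and -1.81 at CT20. No step of Plk1 overlapped, and CT16 was lowest. Aurkb levels were -3.60 and -1.75 at CT0, -4.15 and -4.51 at CT4, -3.82 and -3.96 at CT8, -3.12 and -3.30 at CT12, -4.41 and -4.15 at CT16, and -3.42 and -4.49 at CT20. Its arrays of CT16 and CT20 overlapped, and CT4 replicate 2 was its lowest array. Aurka levels were 0.26 and 1.50 at CT0, -0.35 and -0.25 at CT4, -0.24 and 0.05 at CT8, 0.43 and 0.34 at CT12, -0.29 and -0.22 at CT16, and 0.13 and -0.29 at CT20. Aurka had the narrowest range of the kinases once CT0 replicate 2 was left out (0.78, against 1.65 for Plk1 and 1.39 for Aurkb). The first steps were -1.54 ± 0.46 for Plk1, -1.65 ± 0.56 for Aurkb and -1.18 ± 0.35 for Aurka, and -0.72, -0.72 and -0.56 without that array.

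Bub1, Bub1b and Cdc20 belong to the spindle checkpoint, in which the products of Bub1 and Bub1b delay anaphase and Cdc20 activates the ligase that starts it. Bub1 had the largest first step of the mitosis genes with all arrays, though not without CT0 replicate 2, where Ccna2 had. Its levels were -4.37 and -2.68 at CT0, -5.31 and -5.52 at CT4, -5.15 and -4.55 at CT8, -4.06 and -4.74 at CT12, -6.52 and -5.58 at CT16, and -4.68 and -5.47 at CT20. The first and the last step did not overlap (-1.90 ± 0.58 and 0.98 ± 0.58) and the second did (0.45 ± 0.58); CT16 replicate 1, its lowest array, was not well above background. The first step of Bub1 was -1.05 ± 0.52 without CT0 replicate 2. Bub1b lay at -3.05 and -1.98 at CT0, -3.17 and -4.00 at CT4, -3.27 and -3.24 at CT8, -2.71 and -2.78 at CT12, -3.44 and -3.78 at CT16, and -2.92 and -3.39 at CT20. Its first step was -0.54 ± 0.35 without CT0 replicate 2, from -1.07 ± 0.38. Cdc20 lay at 0.89 and 2.17 at CT0, 0.17 and -0.01 at CT4, 0.39 and 0.48 at CT8, 1.24 and 0.76 at CT12, -0.29 and -0.38 at CT16, and 0.31 and -0.24 at CT20. Its CT0 and CT12 arrays were the 4 highest, CT16 was lowest, and the steps were -1.45 ± 0.38 (-0.81 ± 0.26 without CT0 replicate 2), 0.57 ± 0.38 and 0.37 ± 0.38.

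Mki67, whose product coats mitotic chromosomes and serves as the common marker of dividing cells, lay at 0.07 and 2.02 at CT0, -0.65 and -0.80 at CT4, -0.40 and -0.27 at CT8, 0.28 and -0.08 at CT12, -1.54 and -1.22 at CT16, and -0.38 and -0.82 at CT20. Its steps of -1.77 ± 0.53, 0.44 ± 0.53 and 0.78 ± 0.53 were free of overlap, and a second probe gave -1.77, 0.48 and 0.95. The first was -0.80 ± 0.24 without CT0 replicate 2. Birc5, which encodes survivin of the chromosomal passenger complex, lay at 0.60 and 2.76 at CT0, 0.09 and -0.28 at CT4, 0.57 and 0.51 at CT8, 0.67 and 0.91 at CT12, -0.62 and -0.30 at CT16, and 0.64 and -0.12 at CT20. CT0 replicate 1 of Birc5 was within the range over CT8, CT12 and CT20, and its first step of -1.77 ± 0.60 became -0.69 ± 0.32 without replicate 2. Cenpa, which encodes the histone that marks centromeres, had no value on CT0 replicate 2, where its spot was marked as an outlier, and was fitted on 11 arrays. It lay at -2.62 at CT0, -3.15 and -3.46 at CT4, -3.62 and -3.35 at CT8, -2.46 and -2.84 at CT12, -3.40 and -3.48 at CT16, and -3.01 and -3.61 at CT20. Cenpa therefore showed a step of -0.69 ± 0.29 from CT0 to CT4 (adjusted p = 0.541) with no contribution of that array. Cenpa was also the 1 gene with an unadjusted p under 0.05 from CT8 to CT12, at 0.84 ± 0.23 (adjusted p = 0.273), with CT12 above CT8 on both arrays. Its SE holds no spread from CT0 replicate 2, while the SE of the other genes does in all 3 steps. Its lower p therefore does not set Cenpa apart from the other mitosis genes.

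Top2a and Kif11 differed from the rest in detail. Top2a, which encodes the topoisomerase that untangles sister chromatids, lay at -2.73 and -1.88 at CT0, -2.98 and -4.28 at CT4, -3.90 and -3.58 at CT8, -3.48 and -3.68 at CT12, -5.23 and -5.15 at CT16, and -3.91 and -4.55 at CT20. Both arrays of CT0 were its highest, CT4 replicate 1 came next, and both arrays of CT16 were its lowest. The first step was -1.33 ± 0.44, and -0.90 ± 0.51 without CT0 replicate 2. With all arrays its 24 h wave was the largest of the 34, 3.22-fold from trough to peak (2.11 to 4.91 for 1 SE) with a peak at CT3.0, and missed the threshold (limma adjusted p = 0.329); without CT0 replicate 2 it was 2.53-fold, below the 2.76-fold of Ccne2. Kif11, the motor that pushes spindle poles apart, was not well above background on any array of CT4, CT8 or CT16. Its mean at CT12, -5.89, was at least 1.46-fold above CT8, where it measured -7.13 (adjusted p = 0.434). Between CT0 and CT4 no bound is given, since 1 of 2 arrays of CT0, replicate 2, was well above background (-4.55, against -6.55 on replicate 1). The measured step was -1.09 ± 0.62 (adjusted p = 0.615), and -0.10 ± 0.46 without that array. At CT20 it was at least 1.09-fold above CT16 (means -6.52 and -7.61, adjusted p = 0.463). These bounds set the dim arrays at the lowest signal that counted as well above background there, or at the probe's own signal where that was higher.

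**Figure D3:**
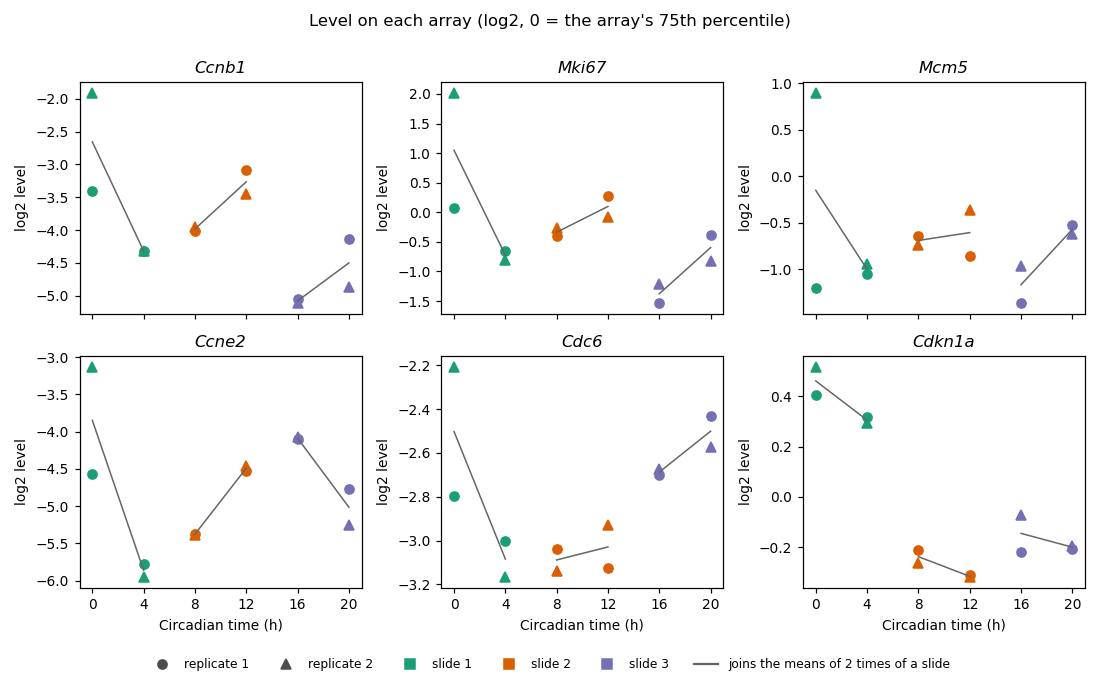
Log2 level (vertical axis, 0 is the array's 75th percentile) of 6 genes on each array against circadian time; symbols give the replicate, colours the slide, and lines join the means of the 2 times of a slide. Ccnb1 and Mki67 share a course, Ccne2 is lowest at CT4 and high at CT16, and Cdkn1a is high on all 4 arrays of the first slide.

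The mitosis genes shared the direction of their steps, and the sequence before their transcription starts was read from RefSeq (mouse GRCm38.p6, 250 bases before to 30 after the first listed start), where 28 of the 34 genes had an entry. The 3 short motifs below were searched on both strands. CCAAT is the letters bound by NF-Y, TTTGAA is the core of the CHR element at which DREAM and FOXM1 complexes sit, and TTTNNCGC holds the letters of E2F sites. CCAAT stood in 12 of 13 mitosis promoters (92.3%), against 36.6% of 27025 promoters, and 2 or more copies in 9 (69.2%, against 11.6%). TTTGAA stood in 7 of the 13 (53.8%, against 17.4%), always with CCAAT (53.8%, against 6.54%). TTTNNCGC stood in 5 of 8 licensing and fork promoters (62.5%, against 4.94%) and in 1 of 13 mitosis promoters, that of Cdk1. A match is a description of these letters and does not show that a factor binds. The promoters of 4 genes are printed to show both layouts, written 5′ to 3′ along the gene's strand, with capitals for matches on either strand (ATTGG is CCAAT read on the other strand). The windows are chr13:100786457-100786736 for Ccnb1, chr10:69352883-69353162 for Cdk1, chr4:118437314-118437593 for Cdc20 and chr1:128359676-128359955 for Mcm6, all on the minus strand.
Ccnb1: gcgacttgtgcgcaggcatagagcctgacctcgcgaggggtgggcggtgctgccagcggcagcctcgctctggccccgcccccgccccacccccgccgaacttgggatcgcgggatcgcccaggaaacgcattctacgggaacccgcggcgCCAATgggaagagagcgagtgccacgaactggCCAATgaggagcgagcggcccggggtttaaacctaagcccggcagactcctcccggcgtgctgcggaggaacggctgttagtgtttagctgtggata
Cdk1: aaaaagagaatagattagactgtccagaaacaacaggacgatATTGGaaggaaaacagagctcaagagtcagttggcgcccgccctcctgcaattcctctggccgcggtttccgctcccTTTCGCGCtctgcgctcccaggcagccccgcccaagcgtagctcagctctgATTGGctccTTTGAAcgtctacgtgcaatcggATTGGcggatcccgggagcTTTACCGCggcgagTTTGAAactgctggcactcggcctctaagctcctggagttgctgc
Cdc20: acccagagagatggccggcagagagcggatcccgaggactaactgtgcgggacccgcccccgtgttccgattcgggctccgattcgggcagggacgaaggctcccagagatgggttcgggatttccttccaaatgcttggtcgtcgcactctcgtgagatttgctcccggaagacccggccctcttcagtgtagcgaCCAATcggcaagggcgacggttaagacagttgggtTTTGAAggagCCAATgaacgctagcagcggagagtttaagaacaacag
Mcm6: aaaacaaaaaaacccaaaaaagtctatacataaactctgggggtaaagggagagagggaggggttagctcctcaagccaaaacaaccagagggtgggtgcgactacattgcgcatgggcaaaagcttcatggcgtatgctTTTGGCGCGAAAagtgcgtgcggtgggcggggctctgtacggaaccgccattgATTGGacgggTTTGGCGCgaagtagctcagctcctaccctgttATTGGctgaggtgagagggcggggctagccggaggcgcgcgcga
Ccnb1 carried 2 CCAAT copies and no TTTGAA, Cdc20 carried 2 CCAAT copies and 1 TTTGAA, and Cdk1 carried all 3 motifs. Mcm6 carried 3 TTTNNCGC matches, 2 of which overlap, and 2 CCAAT copies but no TTTGAA.

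The 9 genes of replication licensing and the fork had smaller steps. Mcm2 to Mcm7 encode the subunits of the replicative helicase, Cdc6 and Cdt1 the proteins that load it, and Pcna the sliding clamp of DNA polymerase. All 9 were lower at CT4 than at CT0, by -0.85 to -0.31 with a median of -0.43, and 1 of them, Cdc6, had an unadjusted p under 0.05. In 2 of the 9, Cdc6 and Mcm7, the arrays did not overlap. Without CT0 replicate 2, 4 of 9 were lower and the median step was 0.00, with values from -0.29 to 0.31. CT0 replicate 2 was the highest array for all 9. In the step to CT12, 3 were higher with a median of -0.04, and from CT16 to CT20, 7 were higher with a median of 0.16.

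Mcm5 had the largest step of this group. It lay at -1.20 and 0.90 at CT0, -1.05 and -0.94 at CT4, -0.64 and -0.73 at CT8, -0.85 and -0.36 at CT12, -1.36 and -0.97 at CT16, and -0.52 and -0.61 at CT20. CT0 replicate 1 was among its lowest arrays and replicate 2 its highest, so the step of -0.85 ± 0.56 became 0.20 ± 0.23 without replicate 2. Mcm3 (-0.68 and 0.01), Mcm6 (-0.65 and -0.01), Mcm4 (-0.43 and -0.05), Mcm7 (-0.37 and -0.03) and Mcm2 (-0.31 and 0.31) gave the same contrast between the step with both CT0 arrays and the step without replicate 2. Pcna went from -0.32 to 0.00 and Cdt1 from -0.38 to 0.14. Over the other 11 arrays the range was 0.24 for Pcna, 0.41 for Mcm7, 0.44 for Mcm4, 0.47 for Mcm3 and for Mcm6, 0.56 for Cdt1, 0.59 for Mcm2 and 1.01 for Mcm5.

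Cdc6 (probe at chr11:99032894-99032953, mm7) kept its own course on this probe. It lay at -2.80 and -2.21 at CT0, -3.00 and -3.17 at CT4, -3.04 and -3.14 at CT8, -3.13 and -2.93 at CT12, -2.70 and -2.67 at CT16, and -2.43 and -2.57 at CT20. The step from CT0 to CT4 was -0.58 ± 0.18, and -0.29 ± 0.13 without CT0 replicate 2. All arrays of CT16, CT20 and CT0 were above all arrays of CT4, CT8 and CT12. Its 24 h wave was 1.63-fold (1.47 to 1.80 for 1 SE) with a peak at CT20.4 and missed the threshold (limma adjusted p = 0.0962, unadjusted p = 0.00172). Without CT0 replicate 2 the wave was 1.53-fold and passed (adjusted p = 0.0398), the 1 of 12 fits without an array in which it did. It passed in 0 of 12 other settings. With slide as a block, which uses differences within slides alone, it was 1.93-fold (unadjusted p = 0.0346). A second Cdc6 probe, nearly as bright, gave a 1.24-fold wave with a peak at CT16.7 (unadjusted p = 0.231). The 2 probes thus differ in the size and the peak of the wave. With all arrays the second probe stepped by -0.23 ± 0.17 from CT0 to CT4, against -0.58 ± 0.18 on the probe used.

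Of the 3 genes of nucleotide supply, Rrm2 had the largest steps, in the directions of the mitosis genes. Its lowest array was CT4 replicate 2, not one of CT16, and its arrays of CT16 and CT20 overlapped. Rrm1 and Rrm2 encode the subunits of ribonucleotide reductase, of which Rrm2 is made in S phase, and Tyms encodes thymidylate synthase. Rrm2 lay at -2.14 and -0.98 at CT0, -2.62 and -2.84 at CT4, -2.62 and -2.43 at CT8, -1.83 and -2.14 at CT12, -2.81 and -2.44 at CT16, and -2.08 and -2.68 at CT20. CT0 and CT12 were above CT4 and CT8 without overlap, and the steps were -1.17 ± 0.37 (adjusted p = 0.482), 0.54 ± 0.37 and 0.25 ± 0.37. The first was -0.59 ± 0.28 without CT0 replicate 2. Tyms and Rrm1 stepped by -0.43 ± 0.22 and -0.42 ± 0.26 from CT0 to CT4, and by -0.06 and 0.04 without that array.

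Of the 5 G1 cyclins, Ccne2 had larger steps than the others in each slide. Ccne2, which encodes an E-type cyclin that drives entry into S phase, had the largest step of all 34 genes. Its probe (chr4:11130171-11130230, mm7) lay at -4.57 and -3.13 at CT0, -5.77 and -5.95 at CT4, -5.37 and -5.39 at CT8, -4.52 and -4.46 at CT12, -4.10 and -4.07 at CT16, and -4.78 and -5.25 at CT20. CT4 was lowest, both arrays of CT16 were above all others but CT0 replicate 2, and no step overlapped. From CT0 to CT4 the step was -2.02 ± 0.39 (4.04-fold lower, unadjusted p = 0.000993, limma adjusted p = 0.476), and without CT0 replicate 2 it was -1.30 ± 0.19. The next step was 0.89 ± 0.39. From CT16 to CT20 it was -0.93 ± 0.39 (unadjusted p = 0.0470, adjusted p = 0.343), opposite in sign to all 15 mitosis genes. A second, dimmer probe stepped by -1.87 ± 0.37, 0.95 ± 0.37 and -1.15 ± 0.37, in the same order. The fitted 24 h wave was 2.35-fold with a peak at CT17.9 (adjusted p = 0.436).

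Ccne1, the other E-type cyclin gene, had steps of -0.79 ± 0.41, 0.01 ± 0.41 and -0.16 ± 0.41, and its first step was -0.14 ± 0.32 without CT0 replicate 2. The D-type cyclins carry growth signals to the kinases of G1. Ccnd1 stepped by -0.44 ± 0.25, 0.17 ± 0.25 and -0.03 ± 0.25, and by -0.16 in the first slide without that array. Ccnd2, with a range of 0.44 over all 12 arrays, stepped by 0.04 ± 0.12 (0.14 ± 0.14 without that array), -0.13 ± 0.12 and 0.01 ± 0.12. Ccnd3 was the 1 gene of the 34 whose arrays at CT4 were above those at CT0, at 0.26 ± 0.12 (adjusted p = 0.575; 0.35 ± 0.15 without CT0 replicate 2), and its highest array was CT8 replicate 1.

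The CDK inhibitor Cdkn1a, which encodes p21 and halts the cycle, came nearest to the threshold. Its probe (chr17:27293819-27293878, mm7) lay at 0.40 and 0.52 at CT0, 0.32 and 0.29 at CT4, -0.21 and -0.26 at CT8, -0.31 and -0.32 at CT12, -0.22 and -0.07 at CT16, and -0.21 and -0.19 at CT20. The 4 arrays of CT0 and CT4 were above the other 8 without overlap, and arrays of 1 time differed by little. For any difference between times the limma adjusted p was 0.0508; it was under 0.05 in 6 of 9 other settings and in 1 of 12 fits without an array. Its 24 h wave was 1.65-fold (1.49 to 1.81 for 1 SE), with a peak at CT1.3 (adjusted p = 0.0860). CT0 and CT4 are also the 2 times of the first slide. With slide as a block the wave was 1.09-fold (unadjusted p = 0.755), and the steps within slides were -0.16 ± 0.08 (-0.10 ± 0.09 without CT0 replicate 2), -0.08 ± 0.08 and -0.05 ± 0.08. For Cdkn1a, time and slide cannot be told apart. Cdkn1b, which encodes p27, had a range of 0.20 over the 12 arrays and steps of 0.02 ± 0.08 (0.02 ± 0.11 without CT0 replicate 2), 0.04 ± 0.08 and -0.11 ± 0.08. A dimmer Cdkn1b probe gave a 1.53-fold wave with a peak at CT5.1 (unadjusted p = 0.00846), against 1.11-fold at CT12.5 on the probe used, so the probes of this gene disagree.

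A 24 h wave fitted with slide as a block uses the 3 steps within slides and nothing else. In that fit 0 of 34 genes passed (0.0381% of all genes), while 18 were under 0.05 before adjustment (13.9%), among them all 15 mitosis genes, with Cdc6, Rrm2 and Ccne2. Fitted peaks of the mitosis genes lay between CT18.2 and CT21.3, while the arrays of CT16 were the lowest measured for 11 of them; differences between slides do not enter this fit. Without CT0 replicate 2, 15 of 34 (14.0% of all genes) and 13 of the 15 mitosis genes had an unadjusted p under 0.05, and the median fold of the mitosis genes was 3.57 in place of 7.44. Without the block the mitosis genes had waves of 1.06-fold to 3.22-fold, and 0 of 15 had an unadjusted p under 0.05. The fit with the block and without that array was added after the data had been seen.

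**Figure D4:**
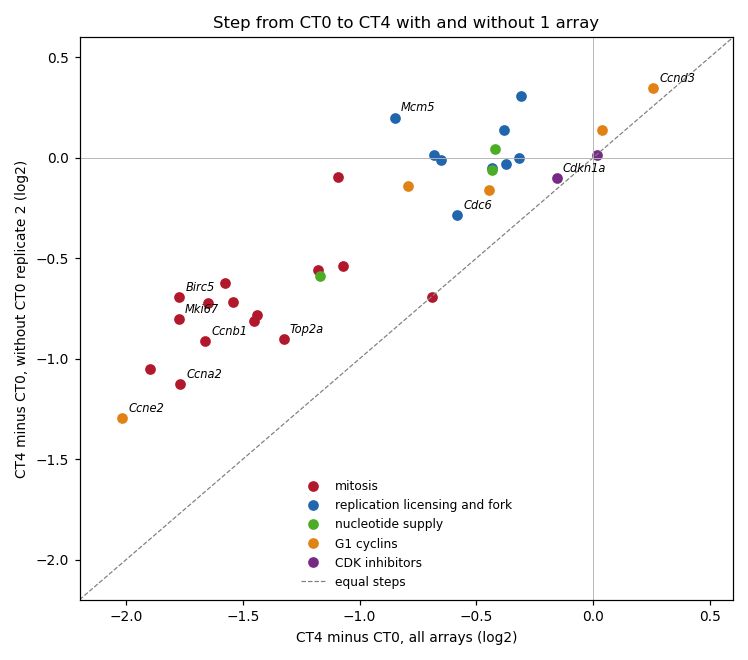
Step from CT0 to CT4 of each of the 34 genes (log2) with all arrays (horizontal axis) and without CT0 replicate 2 (vertical axis); the dashed line marks equal steps. Licensing genes (blue) lie near 0 on the vertical axis, while all mitosis genes (red) stay below 0.

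The rest of the cell cycle was read from a list of 134 other tested genes. Of 52 other mitosis genes, which hold kinesins, condensins and kinetochore proteins, 50 were lower at CT4 than at CT0 and 41 had an unadjusted p under 0.05, with a median step of -1.27. CT0 replicate 2 was the highest array for 48 of the 52, and without it 47 were lower and the median was -0.57. In the step to CT12, 46 of the 52 were higher (4 with an unadjusted p under 0.05, median 0.43), and from CT16 to CT20, 41 were higher (3 higher and 1 lower with an unadjusted p under 0.05, median 0.32). Of 41 other licensing and replication genes, 40 were lower at CT4 (8 with an unadjusted p under 0.05, median -0.32), and the medians of the later steps were 0.01 and 0.07. That array was the highest for 32 of the 41, and without it 25 were lower with a median of -0.03. Of 41 regulators, such as E2F factors, checkpoint kinases and cyclin partners, 30 were lower at CT4, 6 with an unadjusted p under 0.05 and 1 higher, with a median of -0.11; without that array 25 were lower with a median of -0.05. The shares of all genes given above apply to the counts with all arrays. The share of all genes lower in sign without CT0 replicate 2 was not taken, so those counts stand without it.

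Among these 134 genes 1 passed the adjusted threshold in any test, that for a 24 h wave, which 0.636% of all genes passed. Cdkn1c, which encodes the CDK inhibitor p57, had a 1.60-fold 24 h wave (1.49 to 1.72 for 1 SE) with a peak at CT10.2 (limma adjusted p = 0.0392). It lay at 1.97 and 1.73 at CT0, 2.34 and 2.06 at CT4, 2.46 and 2.36 at CT8, 2.32 and 2.54 at CT12, 2.27 and 2.25 at CT16, and 1.75 and 1.88 at CT20. CT20 and CT0 were low and CT8 and CT12 high. It passed in 2 of 12 fits without an array and in 6 of 12 other settings, and missed the threshold with slide as a block (1.89-fold, adjusted p = 0.232). Wee1, which encodes the kinase that holds Cdk1 inactive and is known as a clock target in liver, was picked after its values were seen. Its wave was 1.74-fold with a peak at CT12.9 (adjusted p = 0.162), and it lay at -4.01 and -3.94 at CT12 against -5.02 and -4.70 at CT0.

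Of these 134 genes, 0 passed the adjusted threshold in a step; those with the smallest p in each step and direction follow. Chek1, a checkpoint kinase gene of S phase, stepped by -1.61 ± 0.23 from CT0 to CT4 (unadjusted p = 0.000126, adjusted p = 0.272) and by 0.91 ± 0.23 from CT16 to CT20. Its first step was -1.47 ± 0.28 without CT0 replicate 2. Its arrays of CT0 lay at -3.71 and -3.42, both above both arrays of CT4, at -4.82 and -5.54. With Chek1, the mitosis genes Nek2 (-1.61 ± 0.33) and Sgo1 (-1.16 ± 0.24) had the smallest p among genes lower at CT4; without CT0 replicate 2 they stepped by -1.31 ± 0.39 and -0.71 ± 0.10. The smallest p among genes higher there were those of Cdkn1c (0.35 ± 0.13) and of the phosphatases Cdc25a (0.37 ± 0.17) and Cdc25b (0.25 ± 0.16), which activate CDKs; without that array the steps were 0.23 ± 0.15, 0.52 ± 0.20 and 0.42 ± 0.17. In the step to CT12 they were the stress gene Gadd45g (1.20 ± 0.24), the cytokinesis gene Anln (1.35 ± 0.31) and Myc (0.53 ± 0.12) upwards, and Cdc25a (-0.42 ± 0.17), Trp53 (-0.75 ± 0.31) and Ccnh (-0.16 ± 0.08) downwards. From CT16 to CT20 they were Cdk4 (0.52 ± 0.09, adjusted p = 0.136), Chek1 and the clamp loader gene Rfc3 (0.43 ± 0.12) upwards, and Lin9 of the DREAM complex (-0.89 ± 0.20), Cdkn1c (-0.44 ± 0.13) and the origin gene Orc4 (-0.33 ± 0.10) downwards.

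**Figure D5:**
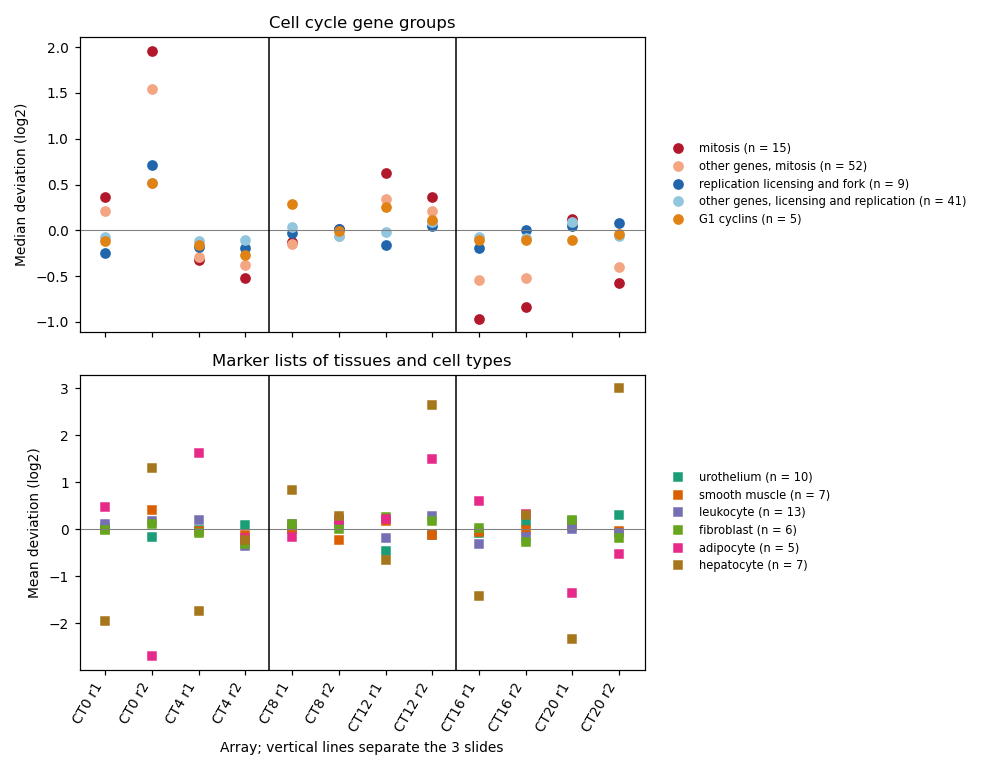
Upper panel, median over each gene group of the log2 deviation from the gene's mean on each array; lower panel, mean deviation of marker lists of tissues and cell types on the same arrays (n is the number of genes). CT0 replicate 2 is the highest array for all 5 cell cycle groups shown and the lowest for adipocyte markers.

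Markers of the tissue's cell types were set beside the pattern. The median deviation of the mitosis genes was 1.96 on CT0 replicate 2, 0.62 on CT12 replicate 1 and between -0.96 and 0.36 elsewhere. CT12 replicate 1 was also the lowest array for the urothelial markers (-0.46) and the highest for the fibroblast markers (0.25). Of the 10 urothelial genes, all lower at CT12 than at CT8, Upk2 (-0.36), Krt20 (-0.52), Upk1b (-0.38) and Krt7 (-0.26) had an unadjusted p under 0.05. At CT16, where the mitosis genes were lowest (-0.96 and -0.84), the urothelial markers averaged -0.09 and 0.16 and the leukocyte markers -0.32 and -0.17. The part of cell composition in the steps was not tested.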

How the data were processed

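Agilent Feature Extraction 10.5.1.1 made the deposited intensity values, corrected for background, per the file headers. A table by the authors holds log2 values; the submitters' processing notes name R 2.8.1, and its normalisation and filter are not given in the sources used here, so it served as an alternative only. Its column medians lay between 8.70 and 8.72. Probe coordinates are on mm7, per the file headers; no annotation of that build was used, so exons and UTRs are not given.

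Log2 processed signals, without outlier spots, were averaged per probe and the array's 75th percentile was subtracted. Names came from RefSeq (GRCm38.p6), with 1 probe per name, the brightest. In limma 3.58.1 (R 4.3.3) a cosine and sine fit of 24 h gave the wave, whose fold is fitted peak over trough, and a 1-way fit over 6 times gave the F-tests and the steps. P-values are two-sided or from F-tests and were adjusted by Benjamini-Hochberg over 18394 genes, threshold 0.05. The scripts were tested on simulated data. Precision is limited by the number of arrays, and 0 spots were saturated.

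The members and gene lists were chosen with earlier results of these data known. Values per array were given for members with an unadjusted p under 0.05 in a step or wave and for the largest step of each role. From the wider list, genes past the adjusted threshold and the 3 smallest p per step and direction were named.

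Alternatives covered background correction, scaling, the authors' table, the dim probe filter, probe choice, a replicate block, slide blocks, the variance prior, the arrays of 1 slide alone and leaving out each array.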

Additional observations from a re-analysis of the deposited data

How the results depend on the processing

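For the 24 h wave, 0 of the 34 genes passed in all 12 other settings, and 0 to 1 with an array left out (1 without CT0 replicate 2). For any difference between times 1 gene, Cdkn1a, passed with normexp correction, quantile normalisation, the authors' table, genes above background on all arrays, the mean of a name's probes and an intensity trend in the prior, with adjusted p from 0.0164 to 0.120 over 9 other settings; with an array left out the count was 0 to 6, the highest without CT0 replicate 1. With an array left out, any step within a slide counted 0 to 3 genes past the threshold and 3 to 28 with an unadjusted p under 0.05. For the step from CT0 to CT4 the count past the threshold was 0 to 20, and the median step was -1.61 to -0.22. The genes lower with an unadjusted p under 0.05 numbered 8 to 29, and those higher 0 to 1. The 20, the 29 and the -1.61 all came from the fit without CT0 replicate 1. That fit sets CT4 against CT0 replicate 2 alone, the array that stood apart. Over all genes, too, more passed in it than with all arrays, so no conclusion is drawn from its counts. For CT8 to CT12, 0 to 7 were higher, and for CT16 to CT20, 0 to 8 were higher and 0 to 1 lower, at an unadjusted p under 0.05.

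Other settings moved small counts at an unadjusted p under 0.05. From CT0 to CT4, 1 gene was higher with normexp, quantile normalisation, the authors' table and the trend. From CT8 to CT12, 2 were higher with genes above background on all arrays and with the mean of probes. From CT16 to CT20, 0 were lower with quantile normalisation, the authors' table, no filter and the replicate block, and 1 was higher with the authors' table. With the 4 arrays of a slide alone, 6 were lower from CT0 to CT4, 11 higher from CT8 to CT12 and 4 higher from CT16 to CT20. These last fits leave the steps as they are and take the spread from the 4 arrays of the slide alone. The cause of the moves was not tested. The step from CT0 to CT4 without CT0 replicate 2 changed sign for Mcm5 (0.20), Mcm2 (0.31), Cdt1 (0.14), Rrm1 (0.04), Mcm3 (0.01) and Pcna (0.00), none of which had passed a threshold.

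Deviations of same-numbered arrays correlated at -0.20 to 0.44 over 15 pairs of times (median 0.17). These values lie on both sides of 0 and do not settle whether the numbers pair the arrays. With the replicate block 0 genes passed, and from CT16 to CT20 the count of lower genes went from 1 to 0. Slide as a random block (correlation 0.15) could be fitted for the wave; for the 1-way fit over times, which already holds slide, it could not be fitted and was not run. Over all genes, the 24 h count of 117 became 7 with slide as a fixed block (4 without CT0 replicate 2, added after seeing the data), 33 with it as a random block, 62 with median scaling and 50 without the filter, and the count for any difference of 18 became 52 with normexp, 46 with the authors' table, 48 with the trend and 33 above background on all arrays. Arrays number 2 per time, and probes near background, such as Kif11, give bounds only.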
